A study of Mus musculus with 12 samples.

Results

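The 8 genes described here encode receptors through which blood-forming cells read the myeloid cytokines: Csf3r, Csf2ra, Csf2rb, Csf2rb2, Il3ra, Csf1r, Il6ra and Il6st. They were chosen by name as a family of receptors, with earlier results of these data known. They are 8 of the 20696 genes with a read in the deposited files. In sorted mouse bone marrow stem and progenitor cells, 2 of the 8 passed the test for loss of the upstream regulatory element of Spi1, averaged over animals with and without an MDMX transgene, beside 11.9% of all genes tested. Csf3r, the receptor of granulocyte colony-stimulating factor (G-CSF), was 8.47-fold higher without the element, and its libraries with and without the element did not overlap, which held in this direction for 4.89% of all genes. Csf1r, the receptor of macrophage colony-stimulating factor (M-CSF), fell at an adjusted p close to the threshold of 0.05, and the remaining 6 did not pass it. In the libraries with the element Csf2ra was the most abundant of the 8 mRNAs per length on average, and in those without it Csf3r was.

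Most of these receptors carry no kinase of their own. A ligand such as G-CSF, granulocyte-macrophage colony-stimulating factor (GM-CSF), interleukin-3 (IL-3) or interleukin-6 (IL-6) brings receptor chains together, and Janus kinases bound to the chains then phosphorylate STAT proteins. Csf1r differs in being a receptor tyrosine kinase. Csf3r drives neutrophil production, the GM-CSF and IL-3 receptors serve granulocytes, monocytes and mast cells, and Csf1r serves monocytes and macrophages. PU.1, the ETS-family factor that Spi1 encodes, is known as a regulator of several of these receptor genes.

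RNA came from Flk2- Lin-Sca-1+Kit+ cells, a bone marrow fraction rich in haematopoietic stem cells, which were sorted by flow cytometry from mice of 4 genotypes, with 3 libraries of polyA RNA each. Wild-type animals carry neither change. Mdmx-Tg animals carry extra MDMX, the p53 inhibitor that Mdm4 encodes, as a transgene; the promoter that drives it, and the strain, age and sex of the animals, are not given in the sources used here. Pu.1-URE-/- animals lack both copies of the upstream regulatory element of Spi1, and Mdmx-Tg/Pu.1-URE-/- animals, the double mutants, carry the transgene and lack the element. No treatment is named, and every library has a mouse number of its own in the labels, so that the p-values measure the spread between these libraries.

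Each library held 47231506 to 55030235 reads assigned to genes. Mdm4 stood at 163 to 535 CPM (TMM-scaled counts per 1000000 reads) in the 6 libraries with the transgene and at 35.8 to 93.9 in the 6 without it. Spi1 ranged from 3.69 to 38.0 CPM with the element and from 0.0198 to 23.9 without it. The overlap came from the Pu.1-URE-/- libraries, where Spi1 stood at 8.73, 8.73 and 23.9 CPM. All double mutant libraries (3.48, 1.84 and 0.0198 CPM) were below the lowest library with the element. The genotypes averaged as lacking the element thus differed in Spi1 mRNA itself. The deleted element lies outside the transcripts. The gate's own genes were present, with Kit at 165 to 328 CPM and Ly6a (Sca-1) read in all 12 libraries, at up to 97.2. Flt3 (Flk2), which the sort selects against, was read in all 12 libraries, at 5.82 to 22.2 CPM with the element and 10.8 to 53.7 without it. Reads of immunoglobulin genes made up 33.2% of Wild-type 1 and 0.144% to 11.9% of the other libraries. The 4 Y-linked genes Ddx3y, Eif2s3y, Kdm5d and Uty summed to 214 CPM in Wild-type 2, to 199.9 and 222 in replicates 1 and 3 of the double mutant, and to 1.88 to 5.70 CPM elsewhere, so sex is not balanced over the genotypes. Mdmx-Tg/Pu.1-URE-/- 3, Mdmx-Tg 2 and Wild-type 1 had been doubted in earlier results, and values that change without them are given beside the results.

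Levels of different genes were compared in the authors' TPM, which correct for transcript length. In Wild-type the order of the group means began with Csf2ra at 17.0 ± 10.5 TPM (SD, n = 3), Csf2rb at 7.41 ± 3.72 and Csf3r at 5.02 ± 1.504. These neighbours overlapped between libraries. The other 5 genes each averaged 1.05 TPM or less. Mdmx-Tg had the same leading genes, with Csf2ra at 26.1 ± 4.24 TPM, apart from Csf2rb at 6.67 ± 0.887, which overlapped Csf3r at 3.73 ± 3.87.

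Without the element the order changed at the top. Csf3r led in Pu.1-URE-/- at 58.9 ± 12.6 TPM, followed by Csf2ra at 10.6 ± 3.82 and Csf2rb at 3.23 ± 0.716, and none of these 3 overlapped. In the double mutant Csf3r averaged 31.3 ± 14.5 TPM, and its lowest library (19.3 TPM) was above the highest library of Csf2ra (16.5 TPM). Csf2ra (11.2 ± 6.56 TPM) and Csf2rb (6.29 ± 3.18 TPM) overlapped there. Of the TPM of the 8 genes together, Csf3r took 0.845% to 21.6% in the 6 libraries with the element and 54.5% to 84.0% in the 6 without it. Csf2ra took 28.2% to 72.0% with the element and 10.5% to 26.6% without. The ratio of Csf3r to Csf2ra in TPM was 0.0117 to 0.689 with the element (median 0.253) and 2.05 to 7.97 without it (median 4.61), a contrast that was picked after the values were seen and is given without a test.

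**Figure D1:**
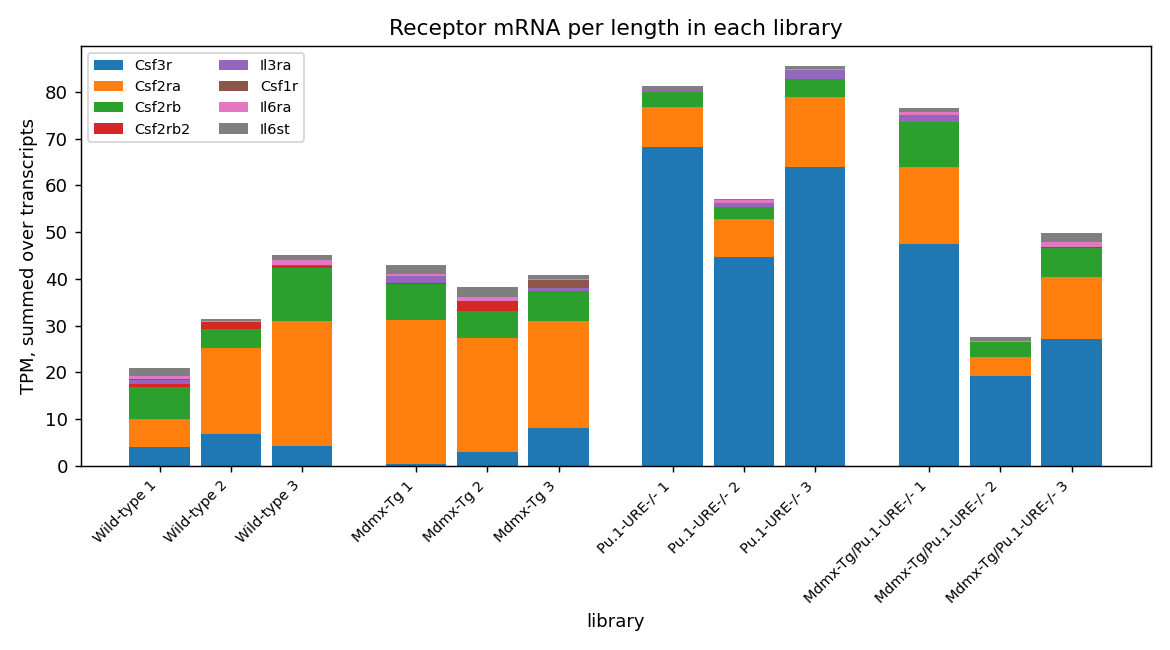
TPM of the 8 receptor genes (vertical axis) stacked for each of the 12 libraries (horizontal axis), 1 colour per gene. The Csf3r block is at most 7.95 TPM high in the 6 libraries with the Spi1 element and at least 19.3 TPM in the 6 without it.

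Csf3r (chromosome 4, 126024550 to 126044440, plus strand, GRCm38) had 24.0, 19.5 and 9.90 CPM in replicates 1, 2 and 3 of Wild-type. In Mdmx-Tg it was at 0.958, 8.40 and 25.7 CPM. Pu.1-URE-/- had 210.2, 116 and 197 CPM, and the double mutant 124, 55.5 and 77.3 CPM. Every library without the element was above every library with it, and the lowest of the former (55.5 CPM) was separated from the highest of the latter (25.7 CPM).

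Averaged over both backgrounds, Csf3r was 8.47-fold higher without the element (log2 change 3.08, SE 0.61, 95% interval 1.75 to 4.42, adjusted p = 0.00817, edgeR's quasi-likelihood test), higher in 6 of 6 libraries. Within each background the size was similar but the threshold of 0.05 was missed: log2 change 3.29 (SE 0.87, adjusted p = 0.0555) for Pu.1-URE-/- against Wild-type and 2.87 (SE 0.85, adjusted p = 0.125) for the double mutant against Mdmx-Tg. DESeq2 called both, meaning an adjusted p below 0.05 (adjusted p = 0.000464 and 0.00507). Without the 3 doubted libraries the averaged change was 3.13 at an adjusted p of 0.0634, so the call ended while the size hardly moved. Among the 9 libraries with low Y-linked reads, Csf3r stood at 0.958 to 25.7 CPM in the 5 with the element and at 55.5 to 210.2 in the 4 without it. In bulk RNA, more cells of a Csf3r-expressing type and more Csf3r mRNA per cell cannot be told apart, and the same holds for every receptor here.

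Markers of the granulocyte lineage moved with Csf3r. All 6 granulocyte-monocyte progenitor markers (Elane, Mpo, Prtn3, Ctsg, Ms4a3 and Cebpe) rose in the averaged comparison, and their summed level reached 1263 to 2559 CPM (Wild-type) and 867 to 1647 (Mdmx-Tg) with the element, against 27920 to 53650 (Pu.1-URE-/-) and 10301 to 29741 (double mutant) without it. Over all genes tested 8.08% rose in that comparison. Of 10 neutrophil markers 9 were tested and 9 rose. Their sum reached 8.11 to 16.6 CPM (Wild-type) and 3.30 to 18.1 (Mdmx-Tg) with the element, against 25256 to 93524 (Pu.1-URE-/-) and 24054 to 28590 (double mutant) without it. Retnlg and Ly6g had no read in Wild-type, Ltf, Mmp8 and Ly6g none in Mdmx-Tg, and Mmp8 none in either genotype without the element. Other lists differed as well: stem cell markers summed to 364 to 672 CPM with the element and 178 to 325 without it. Slamf1 and Mecom of that list fell, as did the megakaryocyte markers Pf4 and Vwf. The mast cell and basophil list went both ways, as Mcpt8 rose and Fcer1a fell (adjusted p = 0.0192, edgeR). The T and NK cell list did so too, with Nkg7 higher and 1 other member lower. Csf3r and both granulocyte-lineage sums separated the libraries with the element from those without it, and the part of any of these cells' abundance in the Csf3r result was not tested.

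**Figure D2:**
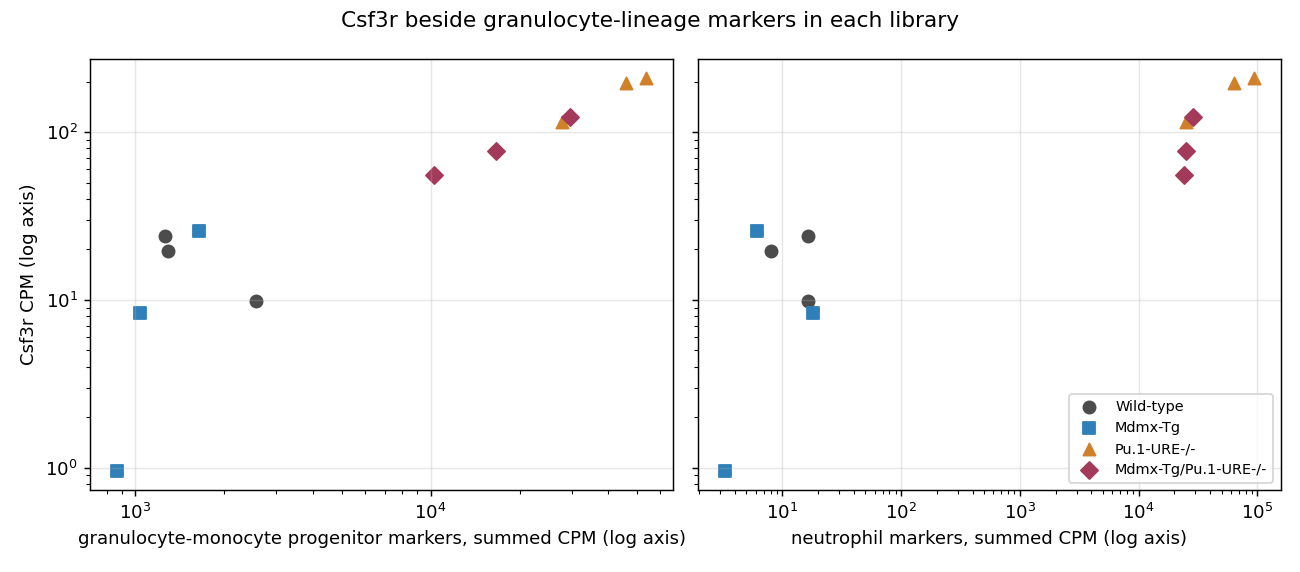
Csf3r in CPM (vertical log axis) against the summed CPM of 6 granulocyte-monocyte progenitor markers (left, log axis) and of 10 neutrophil markers (right, log axis), 1 point per library and 1 symbol per genotype. The 6 libraries with the element lie at most at 25.7 CPM of Csf3r and 18.1 CPM of summed neutrophil markers, and the 6 without it at 55.5 CPM and 24054 CPM or more.

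Reads of Csf3r fell mostly on the coding transcript Csf3r-201, which took 64.9% to 100% of them. A second coding transcript, Csf3r-202, had no estimated read in the 3 Mdmx-Tg libraries and 16.2 to 370.2 in Wild-type. Without the element it reached 1199 to 2954 reads (Pu.1-URE-/-) and 525 to 1210 (double mutant), 15.9% to 28.8% of the gene's reads across those 6 libraries, a range that the Wild-type shares of 34.9%, 15.2% and 2.50% span. Salmon divides reads that fit several transcripts, so these are estimates and were not tested.

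Sequences near the start of 6 of the 8 genes were present in RefSeq's promoter windows (GRCm38.p6), and the 250 bases before each RefSeq start were searched on both strands for GAGGAA, a core of the kind PU.1 binds, and for GCAAT, a C/EBP half-site. GAGGAA was found in 4 of the 6 (Csf3r, Csf2ra, Csf2rb2 and Il6ra) and GCAAT in 4 (Csf3r, Csf2rb2, Il3ra and Il6ra), neither in Il6st. Over all 32851 windows 23.3% held GAGGAA and 23.1% held GCAAT. The 30 bases around each GAGGAA match are shown because the deletion concerns the gene of a factor that binds this core. Capitals mark the match, which reads TTCCTC where it lies on the other strand.
Csf3r: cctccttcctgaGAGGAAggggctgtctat
Csf2ra: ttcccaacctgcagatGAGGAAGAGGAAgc
Csf2rb2: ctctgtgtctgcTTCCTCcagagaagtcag
Il6ra: cttcagcaccggTTCCTCaaatgtttcact
They lie at chr4:126024561-126024590 (plus strand), chr19:61228419-61228448 (minus), chr15:78305871-78305900 (minus) and chr3:89913249-89913278 (minus). Csf2ra holds the core 2 times in a row, with no overlap, starting 14 and 8 bases before the RefSeq start. The Csf3r match begins 86 bases before the RefSeq start and falls in the first exon of Csf3r-202 in the GENCODE annotation, and the second Csf2ra core lies in the first exon of Csf2ra-204, whose edge the first core crosses. The searched Csf3r bases end at 126024658, whereas Csf3r-201, with most of the gene's reads, starts at 126027292 in GENCODE. The bases just before that start were therefore not searched. The Csf2rb2 and Il6ra matches lie outside the exons of their genes. Csf3r, which was higher without the element, and Csf2ra and Csf2rb2, whose estimates were lower, thus all carry these letters, and a match is not a binding site.

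Csf2ra (chromosome 19, 61223957 to 61228429, minus strand) encodes the GM-CSF-specific alpha chain. Its level was 14.1, 20.9 and 25.4 CPM in Wild-type, 30.7, 31.1 and 29.2 in Mdmx-Tg, 13.1, 9.24 and 18.0 in Pu.1-URE-/-, and 16.4, 4.59 and 16.2 in the double mutant. The 3 Mdmx-Tg libraries were the highest of all and lay within 2 CPM of each other, while Wild-type and Pu.1-URE-/- overlapped. The averaged log2 change without the element was -0.94 (SE 0.32, 95% interval -1.65 to -0.22, adjusted p = 0.087, edgeR), and it was -1.29 (SE 0.46, adjusted p = 0.198) against Mdmx-Tg alone and -0.58 (SE 0.46, adjusted p = 0.561) against Wild-type. DESeq2 called the averaged change (adjusted p = 0.0188) and the one against Mdmx-Tg (adjusted p = 0.0414). The Mdmx-Tg libraries did not overlap Wild-type, with a log2 difference of 0.59 (95% interval -0.41 to 1.596, adjusted p = 0.71). Coding transcripts took 64.2% to 87.6% of the reads of Csf2ra, and the others fell on transcripts without a coding sequence.

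The beta chains Csf2rb and Csf2rb2 are neighbours on chromosome 15, and mice have both: Csf2rb pairs with the GM-CSF, IL-3 and interleukin-5 alpha chains, and Csf2rb2 with the IL-3 alpha chain alone. Their main coding transcripts are 95.2% identical over 2631 aligned coding bases. Of 2136 stretches of 100 bases, the length of a read, 286 (13.4%) are the same in both genes, and the median stretch differs at 3 bases. The first 100 coding bases of each show how alike the copies are, with differing bases in capitals.
Csf2rb: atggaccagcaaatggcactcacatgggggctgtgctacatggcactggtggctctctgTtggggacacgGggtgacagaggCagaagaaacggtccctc
Csf2rb2: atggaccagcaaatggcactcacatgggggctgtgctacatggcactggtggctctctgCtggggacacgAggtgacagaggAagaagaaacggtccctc
These exons lie within chr15:78335207-78336359 (plus strand) and chr15:78297091-78298229 (minus strand) of GRCm38. A read that lies wholly in 1 of the 286 identical stretches cannot by itself be placed on 1 gene. The split between Csf2rb and Csf2rb2 is uncertain to that extent, and their sum is given as well.

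Csf2rb (78325752 to 78353847, plus strand) had 57.3, 19.4 and 40.6 CPM in the Wild-type libraries and 31.1, 30.1 and 31.4 in those of Mdmx-Tg. Pu.1-URE-/- had 15.6, 10.4 and 18.9 CPM, below every Wild-type library, and the double mutant 36.4, 15.6 and 27.0, which overlapped Mdmx-Tg. The log2 change was -1.38 in the first pair (SE 0.42, adjusted p = 0.0904, edgeR), -0.23 in the second (SE 0.41, adjusted p = 0.85) and -0.81 averaged (SE 0.29, adjusted p = 0.0987). The difference between the 2 backgrounds was 1.15 (95% interval -0.13 to 2.43, adjusted p = 0.867). DESeq2 called the first pair (adjusted p = 0.0136) and the average (adjusted p = 0.0292), and edgeR's average was called without Wild-type 2 (adjusted p = 0.0489).

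Csf2rb2 (78282507 to 78305721, minus strand) had 4.74, 7.40 and 1.39 CPM in Wild-type and 0.920, 10.7 and 0 in Mdmx-Tg. In Pu.1-URE-/- it was at 0.0204 CPM in replicate 1 and at 0 in the other libraries, and in the double mutant at 0.0201, 0 and 1.72. Over the groups this is 709 reads in Wild-type and 1 in Pu.1-URE-/-, a ratio of 673 with a counting interval of 120 to 26626.5. The 2 genotypes did not overlap, but the fitted change missed the threshold (adjusted p = 0.131 against Wild-type and 0.0687 averaged, edgeR), and DESeq2 called both, meaning an adjusted p below 0.05 (adjusted p = 0.00232 and 0.00198). Without replicate 3 of the double mutant, which holds nearly all of that genotype's 88 reads, the averaged call was made by edgeR (adjusted p = 0.032), as it was without Mdmx-Tg 3 (adjusted p = 0.0393). Csf2rb2 made up 0% to 27.7% of the reads of the 2 beta chains in single libraries with the element, so that the split varied within a genotype.

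Summed, the 2 beta chains fell in Pu.1-URE-/- against Wild-type by 1.54 on the log2 scale (SE 0.39, 2.91-fold lower, adjusted p = 0.0483, edgeR) and by 0.96 averaged over both backgrounds (SE 0.27, 1.94-fold lower, adjusted p = 0.0439). The sums were 62.0, 26.8 and 42.0 CPM in Wild-type, 32.1, 40.8 and 31.4 in Mdmx-Tg, 15.7, 10.4 and 18.9 in Pu.1-URE-/- and 36.4, 15.6 and 28.7 in the double mutant. In the double mutant against Mdmx-Tg the change was -0.37 (SE 0.38, adjusted p = 0.706). In edgeR's test of all 12 libraries neither gene was called singly, and the sum was tested under no other setting.

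Il3ra (chromosome 14, 14346275 to 14356011, plus strand), the IL-3-specific alpha chain, was read at a low level and with gaps. Its values were 2.53, 0 and 0 CPM in Wild-type, 2.34, 0 and 0.789 in Mdmx-Tg, 0.961, 0.986 and 2.78 in Pu.1-URE-/-, and 1.89, 0.149 and 0 in the double mutant. A count of 0 allows up to 0.0459 to 0.0677 CPM, depending on the library (3 reads, for counting error only). Every genotype overlapped every other, and the averaged log2 change of 0.14 had a 95% interval of -3.69 to 3.97, so that no difference was detectable at this level.

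Csf1r was near or below the limit of detection in most libraries. It lies on chromosome 18 from 61100598 to 61132149 (plus strand). Wild-type had 1.603, 0.0726 and 0.918 CPM, and Mdmx-Tg 0.268, 0 and 8.73. Pu.1-URE-/- had no read in any library, and the double mutant had 0.121, 0.0558 and 0.139 CPM. The libraries with and without the element overlapped, because Mdmx-Tg 2 had no read and Wild-type 2 had 0.0726 CPM.

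Against the 135 pooled reads of Wild-type, the 0 reads of Pu.1-URE-/- give a pooled ratio of at least 42.7, taking 3 reads over the group as the floor. This bound allows for counting error only and not for the spread between libraries, as Wild-type 2 held 4 of the 135 reads. The averaged change passed the threshold (adjusted p = 0.0452, edgeR), with a fitted log2 change of -6.66 (SE 1.81) that depends on how the model treats empty libraries and is no bound. Csf1r missed the threshold in Pu.1-URE-/- against Wild-type (adjusted p = 0.131) and in the double mutant against Mdmx-Tg (adjusted p = 0.33), where 487 of the 501 Mdmx-Tg reads came from replicate 3. The averaged call ended when any 1 of 11 of the 12 libraries was left out, at adjusted p-values up to 0.112, and without Mdmx-Tg 3 the fitted change was -4.49 (adjusted p = 0.0852). With the 3 doubted libraries left out the adjusted p was 0.0793, whereas DESeq2 gave 0.000313.

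Of 8 monocyte and macrophage markers 6 were tested. Ly6c2 rose and Cd68 fell in the averaged comparison, where 8.08% of all genes rose and 3.81% fell. The sum of the 8 reached 75.2 to 521 CPM (Wild-type) and 84.8 to 157 (Mdmx-Tg) with the element, against 637 to 752 (Pu.1-URE-/-) and 381.2 to 840.3 (double mutant) without it. Adgre1 (F4/80) had no read in any library without the element and at most 1.02 CPM with it, Vcan none in 11 of 12 libraries, and C1qa none in the double mutant. Their part in the Csf1r values was not tested.

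Il6ra and Il6st make up the IL-6 receptor: Il6ra binds the ligand, and Il6st (gp130) carries the signal for the whole IL-6 family. Il6ra (chromosome 3, 89864059 to 89913196, minus strand) was at 4.77, 0.962 and 2.83 CPM in Wild-type, 0.881, 3.85 and 0.843 in Mdmx-Tg, 0.266, 2.17 and 1.06 in Pu.1-URE-/-, and 1.77, 0.335 and 3.75 in the double mutant. All 4 genotypes overlapped, and the averaged log2 change was -0.61 (95% interval -2.42 to 1.198, adjusted p = 0.708, edgeR).

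Il6st (chromosome 13, 112464070 to 112510086, plus strand) was at 22.5, 3.05 and 7.30 CPM in Wild-type and 14.5, 20.4 and 4.32 in Mdmx-Tg. It was at 3.58, 2.69 and 5.20 CPM in Pu.1-URE-/- and at 5.67, 4.17 and 12.7 in the double mutant. Pu.1-URE-/- was the tightest and lowest group but overlapped Wild-type 2, and the averaged log2 change was -1.16 (95% interval -2.39 to 0.07, adjusted p = 0.213, edgeR). The estimated reads were split between the coding transcripts Il6st-203 and Il6st-201 in a way that varied within genotypes: Il6st-203 took 14.96% in Mdmx-Tg 3 and 3.25% in the double mutant's replicate 2, and 62.5% to 100% in the other libraries.

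**Figure D3:**
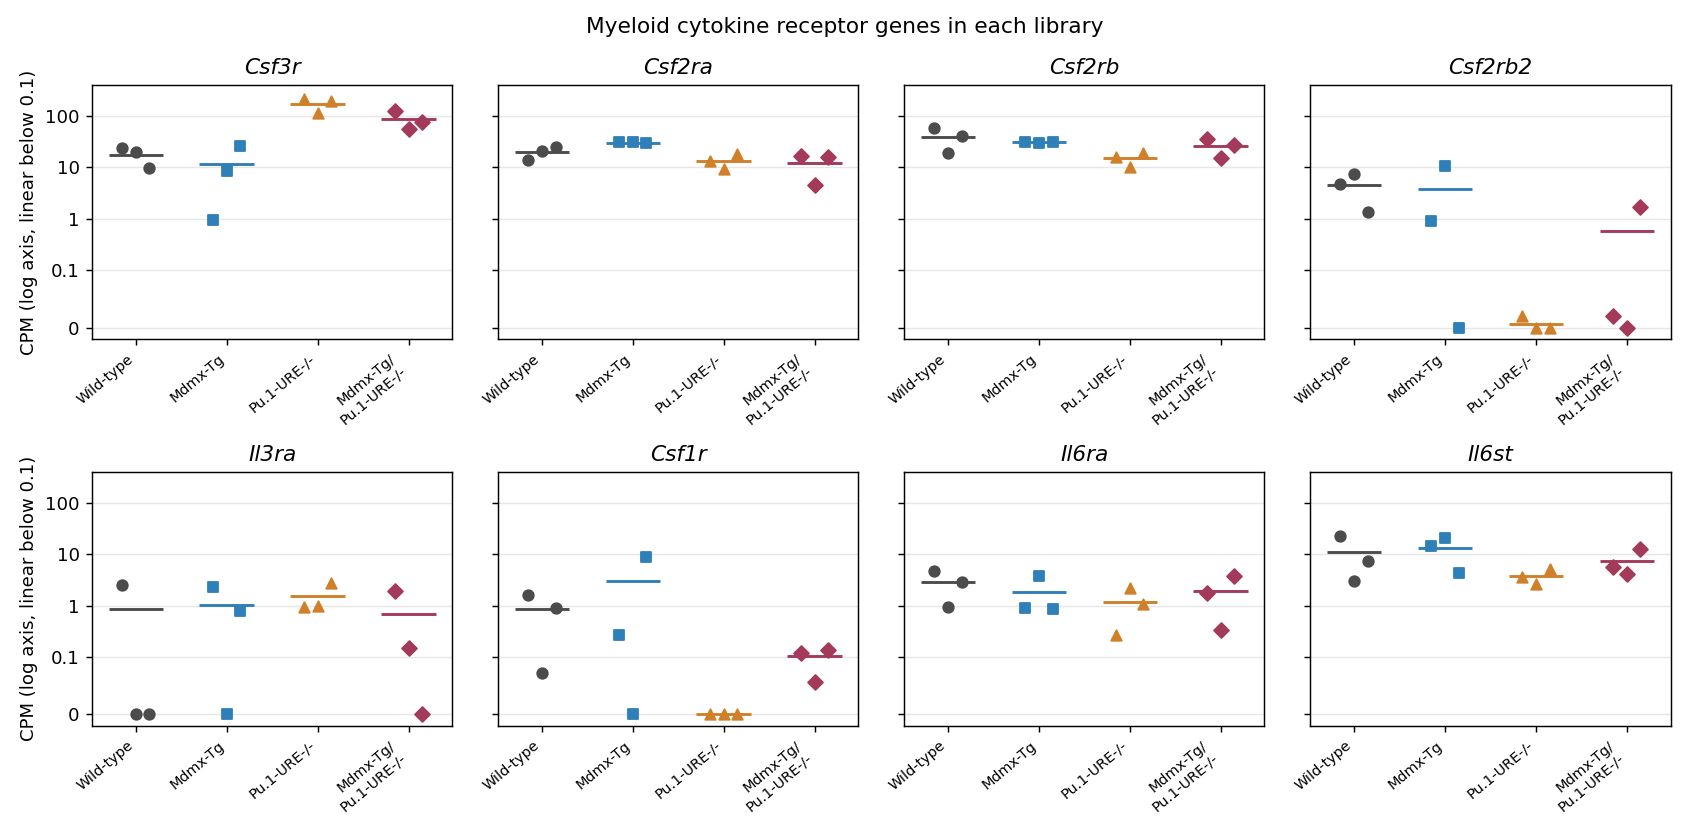
CPM of each receptor gene (vertical log axis, linear below 0.1 so that 0 can be shown) in each library, grouped by genotype; bars are means of 3 libraries. Csf3r is the gene whose 6 libraries without the element (55.5 to 210.2 CPM) lie above all 6 with it (0.958 to 25.7 CPM).

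Counted together, all 8 receptor genes passed the filter on low counts, which took 15012 genes. In Pu.1-URE-/- against Wild-type 0 of the 8 were called by edgeR, beside 4.71% of all genes tested. At an unadjusted p below 0.05 there were 4, beside 19.8% of all genes, and DESeq2 called 4, beside 13.8%. In the double mutant against Mdmx-Tg 0 were called, beside 2.32% of all genes. Unadjusted there were 2 (16.9% of all genes), and DESeq2 called 2 (10%). Averaged over both backgrounds 2 were called, 1 higher and 1 lower, where 11.9% of all genes were called, 8.08% higher and 3.81% lower. Unadjusted there were 5 (26.9% of all genes), and DESeq2 called 5 (21.8%). The count of 2 became 0 without the 3 doubted libraries. Libraries with and without the element did not overlap for 1 receptor gene that was higher and 0 that were lower, beside 4.89% and 1.89% of all genes. The averaged log2 change was above 0 for 2 receptor genes and below 0 for 6, with a median of -0.87 beside -0.000451 over all genes tested.

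**Figure D4:**
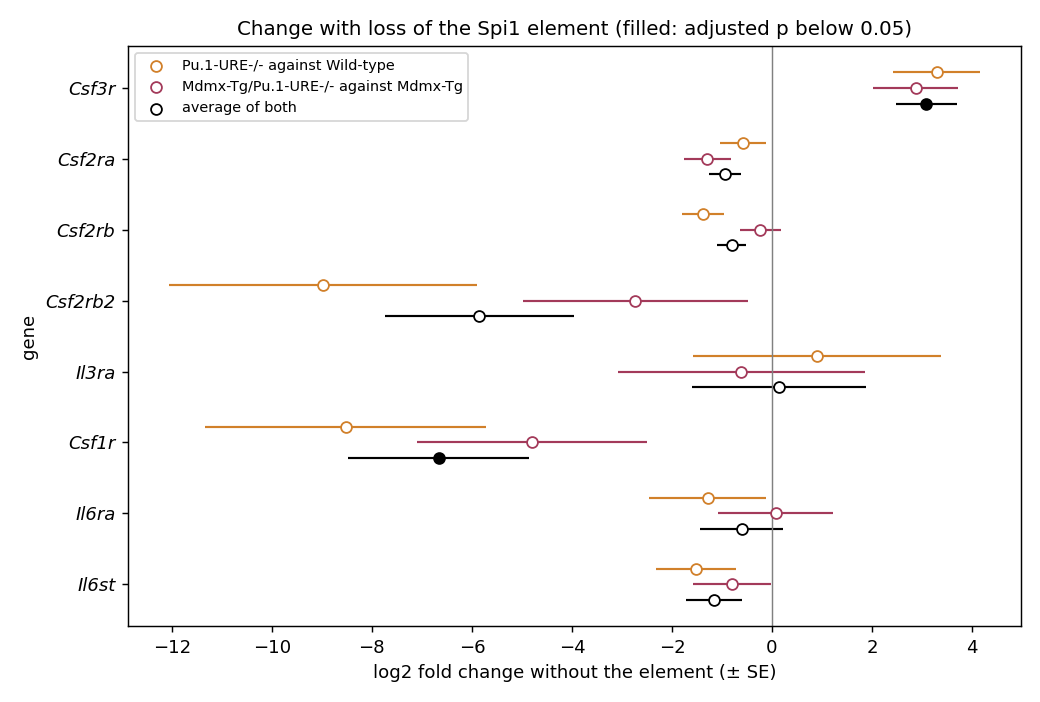
Log2 fold change without the Spi1 element (horizontal axis, ± SE) for each receptor gene (vertical axis) in Pu.1-URE-/- against Wild-type, in the double mutant against Mdmx-Tg and averaged. Filled symbols, for Csf3r at 3.08 and Csf1r at -6.66 in the average, mark an adjusted p below 0.05.

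The transgene changed none of the 8 past the threshold. In Mdmx-Tg against Wild-type 0 were called by edgeR, 0 at an unadjusted p below 0.05 and 0 by DESeq2, beside 0.0%, 10.5% and 2.99% of all genes. In the double mutant against Pu.1-URE-/- these 3 counts were also 0, beside 0.0%, 10.7% and 2.7%. For Csf3r the log2 difference was -0.61 (95% interval -2.36 to 1.15) in the first and -1.03 (95% interval -2.78 to 0.73) in the second. The Csf1r value of 5.50 (95% interval -0.16 to 11.17, adjusted p = 0.475) in the second rests on 16 reads against 0. Their pooled ratio of at least 5.42 allows for counting error only, and the interval between libraries includes 0.

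The double mutant against Wild-type likewise gave 0 called receptor genes by edgeR, 1 at an unadjusted p below 0.05 and 1 by DESeq2, beside 3.34%, 18.5% and 11.6% of all genes. That gene was Csf3r, at a log2 change of 2.27 (SE 0.83, adjusted p = 0.177 by edgeR and 0.0407 by DESeq2). The interaction, which asks whether element loss acts differently with the transgene, called 0 by edgeR, 0 unadjusted and 0 by DESeq2, beside 0.0%, 5.8% and 1.37% of all genes. For Csf3r it was -0.42 (95% interval -2.89 to 2.05). These comparisons share libraries with each other and with those above.

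Of 15 ligands of these receptors and their relatives, 8 passed the filter, and 1 fell in the averaged comparison, beside 3.81% of all genes. Il34, Csf3, Il3 and Il5 had no read, and Csf2 was read in 1 library, at 0.513 CPM. Ebi3, which pairs with the Il27 product to form interleukin-27, a ligand that signals through Il27ra and gp130, was at 61.7, 22.2 and 21.1 CPM in Wild-type and 69.4, 61.9 and 25.8 in Mdmx-Tg. It was at 0.0613, 1.74 and 2.09 CPM in Pu.1-URE-/- and 0.261, 1.47 and 1.84 in the double mutant, with no overlap. Ebi3 fell by 5.10 on the log2 scale (SE 0.78, 34.3-fold lower, adjusted p = 0.00208, edgeR), and in both backgrounds singly (adjusted p = 0.0308 and 0.0314).

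Of the other ligands tested, 5 averaged at least 1 CPM in some genotype. Osm (oncostatin M) was the most abundant of them, at 1.43 to 14.2 CPM with the element and 4.74 to 19.5 without it, with an averaged log2 change of 0.46 (adjusted p = 0.654). Csf1, the M-CSF gene, was at 0 to 6.07 CPM with the element and 0.872 to 5.44 without it (adjusted p = 0.835). Il27 was read at up to 5.38 CPM with the element and had no read in the 6 libraries without it (adjusted p = 0.0721). Clcf1 and Il6 also missed the threshold (adjusted p = 0.747 and 0.445), and Lif, at 3.48 CPM in 1 double mutant library, was not tested.

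Of 9 partner subunits 5 were tested in the averaged comparison, where 8.08% of all genes rose and 3.81% fell. Of these 5, 0 were higher and 1 was lower. That was Il31ra, a gp130-like chain, at 0 to 15.2 CPM with the element and with no read in the 6 libraries without it (adjusted p = 0.0485, edgeR). Mdmx-Tg 1 and Mdmx-Tg 2 had no read of it either. Il27ra, the partner of gp130 for interleukin-27, stood at 10.8 to 35.4 CPM with the element and 12.1 to 30.7 without it, with an averaged log2 change of 0.12 (adjusted p = 0.882).

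All 25 other haematopoietic receptors listed were tested, and 6 rose and 3 fell in the averaged comparison, where 8.08% of all genes rose and 3.81% fell. Those that rose were Il10ra (interleukin-10 receptor), Ifngr1 (interferon-gamma receptor), Cxcr4 (receptor of the niche chemokine CXCL12), Il2rg (common gamma chain), Tnfrsf1b (a TNF receptor) and Flt3. Il10ra was at 0 to 1.38 CPM with the element and 1.79 to 14.9 without it (adjusted p = 0.0022, edgeR). Ifngr1 rose by a log2 change of 1.13 (SE 0.21, adjusted p = 0.00535), Cxcr4 by 1.66 (SE 0.36, adjusted p = 0.0137), Il2rg by 1.12 (SE 0.26, adjusted p = 0.0204) and Tnfrsf1b by 1.91 (SE 0.47, adjusted p = 0.0253). Those that fell were Tek, the angiopoietin receptor, and Il1rl1 and Kit. Il1rl1 was at 32.5 to 39.9 CPM in Wild-type and 4.89 to 17.4 in Mdmx-Tg. The Mdmx-Tg libraries overlapped those without the element, at 4.14 to 13.8. Tek was at 19.2 to 65.6 CPM with the element and 0 to 5.13 without it (adjusted p = 0.00228). The median log2 change of the 25 was 0.43. Ifngr1 was the 1 gene of the list called in Pu.1-URE-/- against Wild-type, and Il10ra and Tek were those called in the double mutant against Mdmx-Tg.

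Downstream of the receptors, all 28 signalling genes were tested, and 1 rose and 3 fell in the averaged comparison, where 8.08% of all genes rose and 3.81% fell. Ptprc (CD45), a phosphatase that acts on Src-family and Janus kinases, was at 117 to 226 CPM with the element and 40.5 to 58.6 without it, 3.39-fold lower (log2 change -1.76, SE 0.18, adjusted p = 0.000186, edgeR), and it was called in both backgrounds singly. Jak2, the kinase bound to the GM-CSF and IL-3 beta chains, fell by 0.65 on the log2 scale (SE 0.14, adjusted p = 0.0128). Mdmx-Tg stood at 76.4 to 91.8 CPM and the other 3 genotypes at 30.2 to 51.4, and the call was made in the double mutant against Mdmx-Tg (adjusted p = 0.0215) and not in Pu.1-URE-/- against Wild-type (adjusted p = 0.555). Stat5a, a STAT protein that these receptors activate, was 2.01-fold lower (SE 0.21 on the log2 scale, adjusted p = 0.0126). Jak3, which binds the common gamma chain, was the gene that rose, by 1.19 (SE 0.34, adjusted p = 0.0469). Neither Stat5a nor Jak3 was called in either background singly. The median log2 change of the 28 genes was -0.02.

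**Figure D5:**
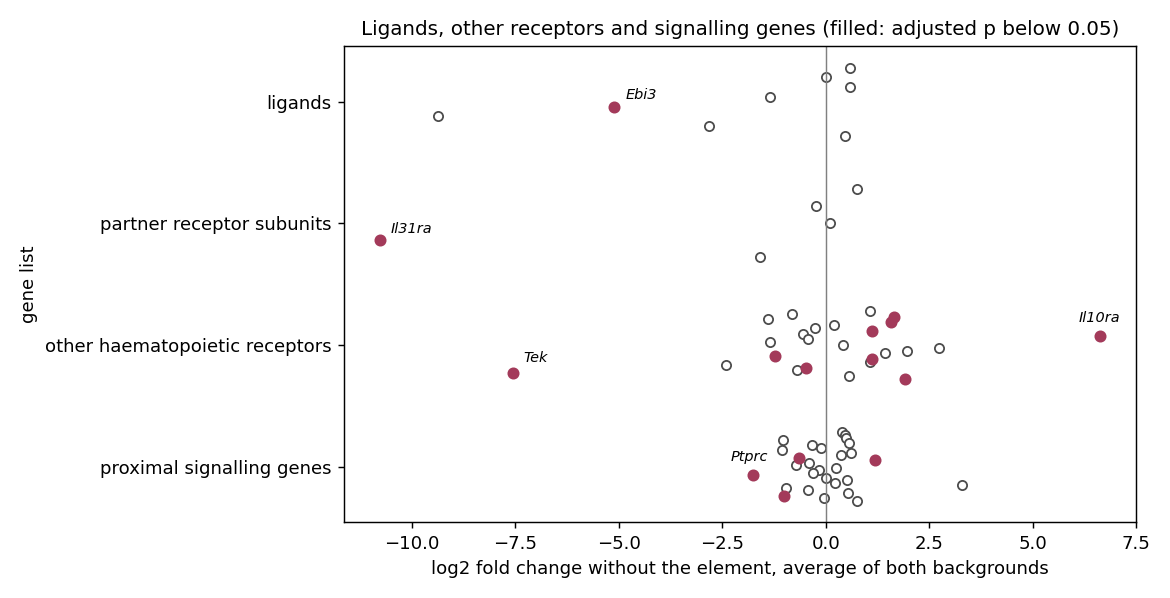
Averaged log2 fold change without the Spi1 element (horizontal axis) for each tested gene of the 4 lists of ligands, partner subunits, other receptors and signalling genes (vertical axis, spread within a list for legibility only). Filled points have an adjusted p below 0.05; Ebi3 lies at -5.10 and Ptprc at -1.76.

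For each receptor gene, the 2 genes with the most similar pattern over the 12 libraries were found among 9419 genes, by the root mean square difference of log2 CPM centred on each gene's own mean. For Csf3r they were Hsd11b1 (0.673) and Dgat1 (0.754), against 2.16 for the spread of Csf3r itself. One of the 2 nearest to Csf2ra was Ccdc186 (0.358), with the spread of Csf2ra itself at 0.766, and Csf2rb was nearest to Crebrf (0.389) and Igtp (0.399), with its own at 0.666. Il6st was nearest to Rras2 (0.524) and Snrpn (0.590), and Il6ra to Myadm (0.722) and Flywch2 (0.758). The 9419 candidates were limited to those averaging 2 or more in log2 CPM, so lower genes were not searched. Whether the low receptors have a close neighbour among genes as low as themselves therefore cannot be decided here. Within the 9419, the nearest was at 1.70 for Csf1r (Matk), 2.01 for Csf2rb2 (Mamdc2) and 1.58 for Il3ra (Csrp1).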

How the data were processed

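PolyA RNA of the sorted cells was sequenced as paired reads of 100 bases, per the labels' protocols. The submitters' processing notes list Salmon, FastQC and DESeq2 and, as builds, GRCm38 and mm10. The deposited files hold, per the file headers, Salmon's estimated counts per transcript, which are not normalized, and the authors' TPM. Of 116248 transcripts 115995 were matched to GENCODE M21 (GRCm38). Estimated counts and TPM were summed per gene, and the counts were rounded. The 8 receptor genes and all lists were chosen with earlier results of these data known. edgeR's filterByExpr (count of 10, total of 15) chose the genes tested, which after TMM scaling were fitted with edgeR 4.0.16 (R 4.3.3, quasi-likelihood, 1 mean per genotype, 12 libraries), with Benjamini-Hochberg adjustment over 15012 genes and a threshold of 0.05. The script was tested on simulated counts. CPM are TMM-scaled counts, SE is the log2 change over the square root of F, 95% intervals of log2 changes use the t quantile, those of read ratios cover counting error only, and a floor is 3 reads. Named genes are the 8 receptors, called list members (at most 6 per list by p, with further ones named where they make up a count), ligands with a mean of 1 CPM in a genotype, Spi1, Mdm4, and the 2 genes most alike; markers and Il27ra were named after their values were seen. The alternatives tried were DESeq2 1.42.0, relative log expression factors, a replicate block, fits on only the groups compared, a length offset, no low-count filter, immunoglobulin genes left out, the 2 beta chains summed, the 3 doubted libraries left out, and each library left out. Replicate numbers did not pair the libraries. Some genes that the rule picks are not reported here.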

Additional observations from a re-analysis of the deposited data

How the results depend on the processing

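Csf3r stayed called in the average in 18 of 19 alternatives (log2 change 2.75 to 3.68) and Csf1r in 4 of 19. The count of receptor genes called in the average was 2; it was 5 with DESeq2, 1 without the low-count filter, 1 with the length offset, 0 without the 3 doubted libraries, and 1 to 2 with single libraries left out. For Pu.1-URE-/- against Wild-type the count of 0 became 4 with DESeq2, 2 with only the groups compared and 0 to 1 with single libraries left out. For the double mutant against Mdmx-Tg it became 2 with DESeq2 and 0 to 1 with single libraries left out, and against Wild-type 1 with DESeq2 and 1 with only the groups compared. The cause was not tested. Same-numbered libraries did not deviate together (18 pairs, correlations -0.153 to 0.0856; 4 of 12 libraries were closest to their own number). A replicate block left the average at 2 calls, with Csf3r at an adjusted p of 0.0204, Csf1r uncalled at 0.104 and Csf2rb called at 0.0455. Signs turned for log2 changes that no fit called. Without the doubted libraries they were 0.0726 for Csf2rb (Mdmx-Tg against Wild-type), 8.73 for Il3ra (double mutant against Wild-type; 1.26 with the block), -0.21 for Il6ra (double mutant against Pu.1-URE-/-) and -0.58 for the Il6st interaction. With the length offset Il6ra was -0.12 (double mutant against Mdmx-Tg). With single libraries left out, Mdmx-Tg against Wild-type ranged from -2.66 to 2.61 for Csf1r, -0.67 to 0.047 for Csf2rb, -3.29 to 0.36 for Csf2rb2, -1.10 to 8.83 for Il3ra and -0.22 to 1.34 for Il6st. The double mutant against Mdmx-Tg ranged from -0.61 to 0.0396 for Csf2rb, -8.31 to 0.34 for Csf2rb2, -3.81 to 0.69 for Il3ra and -0.82 to 1.18 for Il6ra. Against Pu.1-URE-/- it ranged from -0.41 to 0.28 for Csf2ra and -0.15 to 1.501 for Il6ra, and against Wild-type from -3.51 to 8.14 for Il3ra and -1.16 to 0.48 for Il6st. The interaction ranged from -0.999 to 0.86 for Csf3r and -0.44 to 1.197 for Il6st, and the Il3ra average from -1.48 to 4.37. Il3ra, Csf1r and Csf2rb2 had 0 reads in some libraries and reads in others of similar depth.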
